A study of Mus musculus with 8 samples.

Results

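The miR-200 family comprises miR-200a, miR-200b, miR-200c, miR-141 and miR-429. It was followed here in small RNA of MIN6B1 cells, a mouse insulinoma line that serves as a model of the pancreatic beta cell. Members were the distinct read sequences, each counted once, whose deposited annotation named a mature product of 1 of these 5 hairpins, from either arm. They numbered 26 of 11568 distinct sequences listed, and of the 652 listed sequences annotated as a mature miRNA. miR-200c-3p had 13 of them, miR-141-3p had 3, miR-200b-3p and miR-429-3p had 1 each, and miR-200a-3p, miR-141-5p, miR-200a-5p and miR-200b-5p had 2 each. The counts cover 4 groups of 2 libraries. Cells received either a control plasmid or a plasmid encoding HENMT1ΔC-T6B, and the RNA of each was either treated with sodium periodate (oxidized) or left without it (non-oxidized). All groups shared the cell line, Lipofectamine transfection, total RNA extraction and the QIAseq miRNA library kit. The labels number the libraries but do not say whether they came from separate cultures, so the p-values measure only the spread between these libraries, which may be technical.

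miR-200 family miRNAs are typical of epithelial cells, where they repress the transcription factors Zeb1 and Zeb2 and thereby help to keep E-cadherin expressed. They are also expressed in pancreatic islets and have been linked to the survival of beta cells under stress. A miRNA recognizes its targets mainly through its seed, bases 2 to 8, and exerts its effect when it is held by an Argonaute protein. HENMT1 is a methyltransferase that adds a methyl group to the 2′ oxygen of the last base of a small RNA, and the T6B peptide, derived from a TNRC6 protein, binds Argonaute. Periodate oxidizes an unmethylated 3′ end and so prevents the adapter ligation that library preparation needs. The retention of a miRNA in oxidized RNA therefore served as the readout of 3′ methylation.

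The family lies in 2 clusters on the minus strand (RefSeq, GRCm38.p6). Mir200b, Mir200a and Mir429 occupy 1846 bases at chr4:156053905-156055750, inside an intron of Ttll10; Mir429 also lies in an exon of the noncoding transcript Gm13648 and the other two in an intron of it. Mir200c and Mir141 occupy 477 bases at chr6:124717914-124718390, inside an intron of the transcript Gm15884, and miR-141-3p also lies in an exon of the transcript Gm29008. The mature sequences of the 8 listed arms are shown because the 3p arms of the 5 hairpins are close relatives whose responses differed. They come from RefSeq, run 5′ to 3′, and carry the seed in capitals. All 8 matched a listed sequence of the data exactly, with U read as T.
miR-200c-3p: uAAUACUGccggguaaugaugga
miR-200b-3p: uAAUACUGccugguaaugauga
miR-429-3p: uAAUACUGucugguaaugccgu
miR-200a-3p: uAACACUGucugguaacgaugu
miR-141-3p: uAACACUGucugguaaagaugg
miR-200a-5p: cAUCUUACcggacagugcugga
miR-200b-5p: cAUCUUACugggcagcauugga
miR-141-5p: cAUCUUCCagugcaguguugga

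By seed, miR-200b-3p, miR-200c-3p and miR-429-3p share AAUACUG, and miR-200a-3p and miR-141-3p share AACACUG. Seed groups and clusters cross: each cluster holds both seeds. Counted from 1 at the 5′ end, miR-200a-3p and miR-141-3p differ by 2 substitutions, C17A and U22G. miR-200b-3p and miR-200c-3p differ over 22 bases by U11G and A22G, and miR-200c-3p has 1 further base at its 3′ end. miR-200b-3p and miR-429-3p differ by C9U, A19C, U20C and A22U. The mature 3p products lie at chr6:124718324-124718346 (miR-200c-3p), chr6:124717917-124717938 (miR-141-3p), chr4:156053916-156053937 (miR-429-3p), chr4:156054911-156054932 (miR-200a-3p) and chr4:156055685-156055706 (miR-200b-3p). The 5p products lie at chr6:124717959-124717980 (miR-141-5p), chr4:156054949-156054970 (miR-200a-5p) and chr4:156055721-156055742 (miR-200b-5p). No sequence annotated as miR-200c-5p or miR-429-5p was listed.

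Library totals over the listed sequences were 5387014 and 6641250 counts for non-oxidized control RNA, 438363 and 295094 in oxidized control RNA, 3654639 and 4887022 in non-oxidized methyltransferase RNA, and 3100971 and 2446036 in oxidized methyltransferase RNA. Every listed sequence had at least 2 counts in each oxidized methyltransferase library, so a sequence lost there would not be listed, and this favours higher values with the methyltransferase after oxidation. Of 7 islet and beta cell miRNAs checked all were listed, with sums of 743945 and 889152 counts in non-oxidized control RNA. Of 7 epithelial miRNAs 6 were listed, with sums of 46085 and 53153. They were the 5 family members and miR-203-3p (5 and 22 counts), and miR-205-5p was not listed. No listed sequence was annotated with the 3 muscle, 5 blood or 4 fibroblast miRNAs, while the single endothelial miRNA (248 and 311 counts), the single liver miRNA (404 and 164) and 3 neuronal miRNAs (sums 3345 and 3107) were present.

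Without oxidation and without the methyltransferase, miR-200c-3p led the family and miR-141-3p came next. The main sequence of each arm is the one with the highest mean count in these 2 libraries among the sequences annotated as that arm. Each read spans the whole RNA, so counts were not divided by length. mmu-miR-200c-3p (seq6185, 23 nt) had 28160 and 30760 counts and mmu-miR-141-3p (seq6041, 22 nt) had 14962 and 18776. miR-429-3p (seq6245) had 1913 and 2356 counts, mmu-miR-200a-3p (seq6053) 839 and 858, and mmu-miR-200b-3p (seq6233) 206 and 381. The prefix for mouse is left out from here on. The listed 5p arms followed the order of the 3p arms of the same hairpins. miR-141-5p (seq1689) had 415 and 458 counts, above miR-200b-3p, miR-200a-5p (seq1685) had 117 and 200, and miR-200b-5p (seq1687) had 45 and 76. This order of main sequences was the same in both libraries, and the ranges of neighbours in it did not overlap. It depends on counting the main sequence alone: over all listed forms miR-200a-3p had 3947 and 4720 counts, above the 2034 and 2487 of miR-429-3p. All 26 members together held 71405 and 85095 counts, 1.33% (95% Wilson interval 1.32% to 1.34%) and 1.28% (1.27% to 1.29%) of the listed counts. Both 3p arms of the chromosome 6 cluster thus stood above the 3 of the chromosome 4 cluster.

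Oxidized control RNA held almost no family reads. The 26 members together made up only 0.0281% (95% Wilson interval 0.0235% to 0.0335%) and 0.0478% (0.0405% to 0.0563%) of its listed counts, and 18 of the 26 had 0 counts in both libraries. Such intervals cover counting error only, since reads are not independent molecules. Of the 24 members that passed the filter on low counts, 23 were called lower and 0 higher, where a call is an adjusted p under 0.05 by the quasi-likelihood test of edgeR with Benjamini-Hochberg adjustment over 9851 sequences. Of all sequences tested 46.4% were lower and 18.4% higher. Among sequences of mature miRNAs these shares were 92.8% and 0.165%. The exception was a 23 nt sequence of miR-200c-3p whose first base was read as N (seq5992). The median log2 fold change was -8.97, or -5.68 with 17 members of 0 counts set at a floor of 3 counts per library. Over all sequences it was -1.14, and over mature miRNA sequences -8.69.

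The reads that survived in oxidized control RNA had another makeup than before oxidation. The 21 nt sequence of miR-141-3p (seq6040) kept 74 and 63 counts there, 60.2% (95% Wilson interval 51.3% to 68.4%) and 44.7% (36.7% to 52.9%) of all member counts, whereas it held 8.26% (8.06% to 8.46%) and 10.2% (9.99% to 10.4%) in non-oxidized control RNA. The 22 nt main sequence of miR-141-3p kept 0 and 5 counts. For miR-200c-3p the 22 nt sequence (seq6184) kept 20 and 40, the 21 nt sequence (seq6180) 19 and 5, and the 23 nt main sequence 0 and 14. Both libraries thus held more of a shorter form than of the main form for both miRNAs, whereas the main form led before oxidation. miR-200a-3p showed the same pattern at a lower level, with 7 and 7 counts of its 21 nt sequence (seq6052) and 0 and 0 of its 22 nt sequence. The main sequences of miR-429-3p, miR-200a-3p, miR-200b-3p and the 3 5p arms had 0 counts in both libraries. Against the floor under TMM (trimmed mean of M-values) scaling, the fall was at least 899-fold for miR-429-3p, at least 358-fold for miR-200a-3p and at least 123-fold for miR-200b-3p. TMM factors were 0.361 and 0.307 for non-oxidized and 7.05 and 7.23 for oxidized control libraries. These bounds would be smaller with total counts. With total counts in place of TMM scaling, the median log2 fold change of all sequences in this comparison shifted by 4.34, and 19 members were called lower and 0 higher, against 23.7% of all sequences lower. With mature miRNA sequences fitted alone 11 were called lower and 0 higher, against 48.1% of 609 sequences lower.

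**Figure D1:**
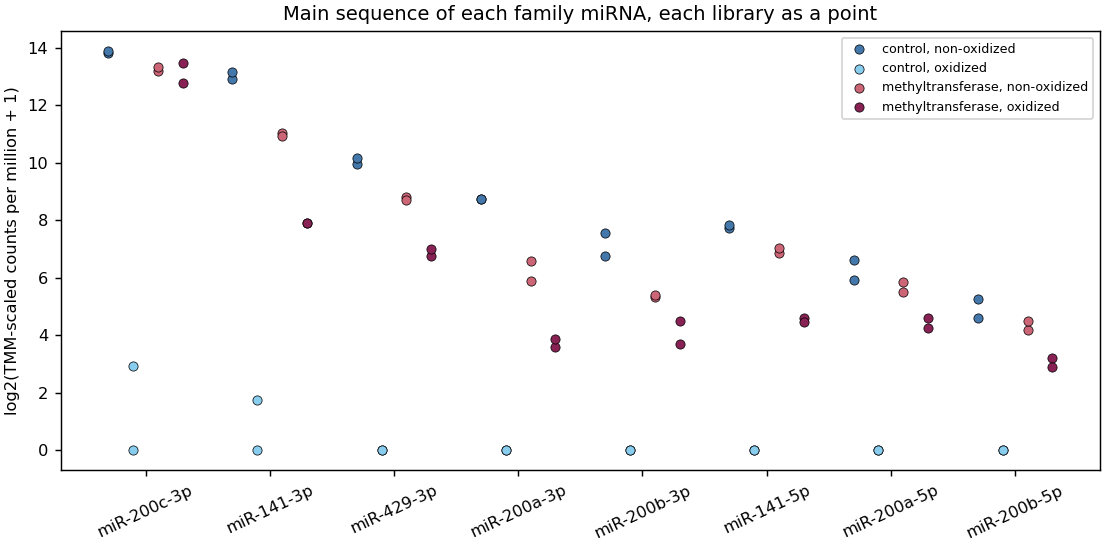
Level of the main sequence of each family arm in each of the 8 libraries, as log2 of TMM-scaled CPM plus 1. Points are single libraries and colours are the 4 groups. miR-200c-3p is near its non-oxidized level in oxidized methyltransferase RNA. The other 3p arms step down from non-oxidized control to non-oxidized and then oxidized methyltransferase RNA. In oxidized control RNA 6 of the 8 arms lie at 0.

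With the methyltransferase, family reads were present after oxidation. The 26 members had 27382 and 35044 counts in oxidized methyltransferase RNA, which was 0.883% and 1.43% of listed counts. Of mature miRNA counts alone they were 1.34% and 2.13%, against 1.63% and 1.44% before oxidation. In oxidized control RNA they were 0.893% and 1.39% of the few mature miRNA counts, so on that measure the share differed little. Compared with oxidized control RNA, 22 of the 24 members tested were called higher and 0 lower. Of all sequences 42.3% were higher and 3.92% lower. Among sequences of mature miRNAs these shares were 85.3% and 0.165%. The median log2 fold change was 7.64, or 3.46 with 17 members at their bound, against 6.49 over mature miRNA sequences and 0.82 over all sequences. The members' share lies near that of mature miRNAs in general and is no result about the family. The 2 members not called were the 19 nt sequence of miR-141-3p (2.25, edgeR adjusted p 0.0690) and the 21 nt sequence of miR-200a-3p (0.78, edgeR adjusted p 0.277). With total counts the median of all sequences shifted by -2.99, and 16 members were called higher and 2 lower, against 27.8% and 48.7% of all sequences. With mature sequences alone 12 were higher and 2 lower, against 37.8% and 14% of 609. Under both settings the 2 lower were the 21 nt sequences of miR-141-3p and miR-200a-3p.

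The main sequence of miR-200c-3p rose from 0 and 14 counts in oxidized control RNA to 18875 and 24552 with the methyltransferase, which gave 11.57 ± 1.11 on the log2 scale (SE; edgeR adjusted p 7.02e-06). Both methyltransferase libraries lay far above both control libraries. The main sequence of miR-141-3p rose to 646 and 517 counts from 0 and 5 (7.81 ± 0.79, edgeR adjusted p 1.02e-05). Without the second oxidized control library, the only one with reads of either sequence, these fitted values were 17.33 and 12.07, and with 0 counts in that group they depend on the prior count. For miR-429-3p the oxidized methyltransferase libraries held 288 and 276 counts and the oxidized control libraries none, a difference of at least 98.5-fold. The corresponding bounds were at least 13.9-fold for miR-200b-3p (32 and 46 counts), at least 10.3-fold for miR-200a-3p (30 and 29), at least 18.4-fold for miR-141-5p (62 and 45), at least 17.2-fold for miR-200a-5p (62 and 39) and at least 6.15-fold for miR-200b-5p (22 and 14). All 6 were called, with edgeR adjusted p from 1.71e-06 to 0.000282. These bounds hold under TMM scaling only. Its factors were 7.05 and 7.23 for the oxidized control and 0.872 and 0.886 for the oxidized methyltransferase libraries. With total counts the bounds would be smaller.

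The shorter forms stood closer to the background. The 21 nt sequence of miR-141-3p had 274 and 226 counts after oxidation with the methyltransferase, which was 1.95 ± 0.37 above oxidized control RNA on the log2 scale (edgeR adjusted p 0.000982), but this became -1.07 with total counts and -2.03 when mature miRNA sequences were fitted alone. The 21 nt sequence of miR-200c-3p had 108 and 178 counts (3.78 ± 0.55, edgeR adjusted p 0.000155), with values of 0.79 under total counts and -0.26 with mature sequences alone. The 22 nt sequence of miR-200c-3p, with 6640 and 8766 counts, gave 8.03 ± 0.63 (edgeR adjusted p 1.96e-06). Thus 1 base at the 3′ end of miR-200c-3p separated the form with 6640 and 8766 counts after oxidation from the form with 108 and 178. Before oxidation these forms already differed, with 8269 and 9802 against 1547 and 2200 counts, though by a smaller ratio.

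Before oxidation, the libraries with the methyltransferase held fewer reads of most 3p arms than those with the control plasmid, but no member passed the edgeR test. Of the 24 members tested 0 were called in either direction, as were 0% of all 9851 sequences; at an unadjusted p under 0.05, 9 members were lower and 0 higher, against 4.73% of all sequences lower and 3.98% higher. The DESeq2 Wald test called 3 of 19 members lower and 0 higher, against 1.65% and 0.874% of 4121 sequences. Neither the unadjusted nor the DESeq2 count was set against mature miRNA sequences alone, so neither is a result about the family. The signs were negative for 22 of the 24, with a median log2 fold change of -0.83, against -0.63 over mature miRNA sequences and 0.05 over all sequences.

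miR-200a-3p had 839 and 858 counts with the control plasmid and 181 and 124 with the methyltransferase, or -2.48 ± 0.43 on the log2 scale (SE; edgeR adjusted p 0.260, DESeq2 Wald -2.67, adjusted p 0.00178). The groups did not overlap in scaled counts, and of 123 main sequences of mature miRNAs with a mean of at least 50 counts it ranked lowest, 123rd from the top. miR-141-3p had 14962 and 18776 counts against 3967 and 4151 (-2.07 ± 0.54, edgeR adjusted p 0.299, DESeq2 Wald -2.29, adjusted p 0.00564) and ranked 121st. miR-200b-3p went from 206 and 381 to 74 and 88 (-1.87 ± 0.50, edgeR adjusted p 0.302, DESeq2 Wald -2.11, adjusted p 0.0219) and ranked 118th. These 3 were the members called by the DESeq2 Wald test. miR-429-3p, the third product of the chromosome 4 cluster, had 1913 and 2356 against 848 and 891 counts (-1.31 ± 0.37, edgeR adjusted p 0.317) and ranked 91st.

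miR-200c-3p had a value nearer 0 than its cluster partner miR-141-3p in this comparison. Its 28160 and 30760 counts became 17856 and 22099, a log2 fold change of -0.59 ± 0.69 (edgeR adjusted p 0.864), rank 39, and 0.092 with mature sequences alone. The 22 nt and 21 nt sequences of miR-200c-3p gave -0.83 ± 0.46 and -1.11 ± 0.46, and the 21 nt sequence of miR-141-3p -1.19 ± 0.35. The 5p arms had fitted values nearer 0 than the 3p arms of the same hairpins. They were -0.83 ± 0.39 for miR-141-5p, -0.65 ± 0.46 for miR-200a-5p and -0.64 ± 0.51 for miR-200b-5p, and the latter pair turned to 0.055 and 0.061 with mature sequences alone.

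**Figure D2:**
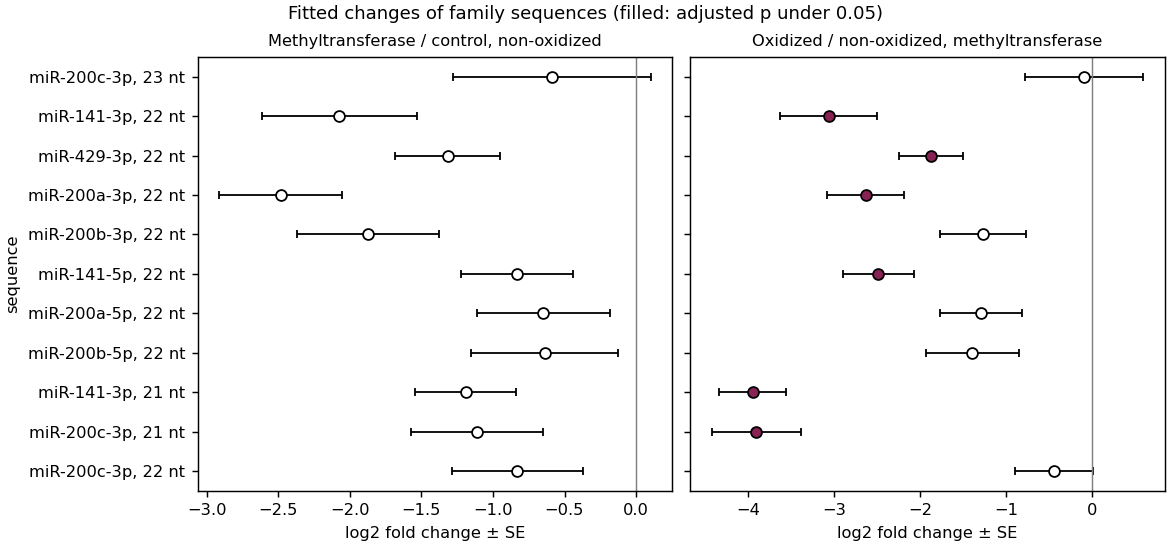
Fitted log2 fold changes with their SE for the 8 main sequences and the 3 most abundant other members, between plasmids without oxidation (left) and between oxidized and non-oxidized methyltransferase RNA (right). Filled points had an edgeR adjusted p under 0.05; no point is filled on the left, and on the right miR-200c-3p at 23 and 22 nt lies near 0 while its 21 nt form lies at -3.91. The values are under TMM scaling, and the signs of both miR-200c-3p points near 0 turn positive with total counts.

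The comparison of oxidized with non-oxidized methyltransferase RNA asks how much of each miRNA was kept, and here the fitted values of the members varied widely. Of the 24 members tested 9 were called lower and 0 higher (edgeR). Of all sequences 11.2% were lower and 1.77% higher, against 41.4% and 0% among mature miRNAs. The members' share of calls thus lies near that of mature miRNAs and is no result about the family. The 9 were the 22 and 21 nt sequences of miR-141-3p, miR-200a-3p and miR-141-5p, the 21 nt sequences of miR-200c-3p and miR-200b-5p, and miR-429-3p. The median log2 fold change was -1.35, close to the -1.39 of all mature miRNA sequences, and the members ran from -3.95 to 2.60. With mature sequences fitted alone 5 members were called higher and 6 lower, against 19.9% and 23.3% of 609 sequences. With total counts, which shift the median of all sequences by 0.87, 1 was higher and 6 lower, against 10.2% and 6.4% of all sequences.

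miR-200c-3p had the highest fitted value of the main 3p sequences. Its main sequence had 17856 and 22099 counts before and 18875 and 24552 after oxidation, or -0.10 ± 0.69 on the log2 scale (SE; edgeR adjusted p 0.948). The sign was not fixed: it was 0.78 with total counts, 0.67 with the upper quartile, 0.14 with only the libraries compared and 1.38 with mature sequences alone. It ranked 5th from the highest of the 123 main sequences. The 22 nt sequence had 8269 and 9802 counts before and 6640 and 8766 after (-0.45 ± 0.46, edgeR adjusted p 0.576). It was 0.43 with total counts and 1.03 with mature sequences alone, where it was called higher (edgeR adjusted p 0.0427).

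The 2 miRNAs with the AACACUG seed fell. miR-141-3p went from 3967 and 4151 to 646 and 517 counts (-3.07 ± 0.56, edgeR adjusted p 0.00346), and miR-200a-3p from 181 and 124 to 30 and 29 counts (-2.63 ± 0.45, edgeR adjusted p 0.00272). They ranked 86th and 74th of 123. In both, each oxidized library lay far below each non-oxidized one. Their 21 nt forms fell by 3.95 ± 0.39 (miR-141-3p, edgeR adjusted p 5.07e-05) and 3.92 ± 0.49 (miR-200a-3p, edgeR adjusted p 0.000263). Beyond the seed, these miRNAs are alike at all but 2 of 22 bases.

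The other 2 miRNAs with the AAUACUG seed lay between these. miR-429-3p went from 848 and 891 counts to 288 and 276 and fell by 1.87 ± 0.37 (edgeR adjusted p 0.00716), rank 52. Its call was lost with total counts (-1.01, edgeR adjusted p 0.0959), with the upper quartile (-1.10) and without the first oxidized methyltransferase library (-1.77, edgeR adjusted p 0.0608). miR-200b-3p went from 74 and 88 counts to 32 and 46, a log2 fold change of -1.27 ± 0.50 that did not pass the test (edgeR adjusted p 0.140), rank 36, and 0.20 with mature sequences alone. Among the 5p arms miR-141-5p fell to 62 and 45 counts from 222 and 279 (-2.49 ± 0.42, edgeR adjusted p 0.00248). miR-200a-5p went from 85 and 121 to 62 and 39 (-1.30 ± 0.48, edgeR adjusted p 0.112) and miR-200b-5p from 33 and 46 to 22 and 14 (-1.39 ± 0.54, edgeR adjusted p 0.130), both positive with mature sequences alone (0.17 and 0.061).

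Within miR-200c-3p and miR-141-3p, retention varied with the 3′ end of the molecule. Some of the listed forms with the annotated 5′ end are shown, because for each miRNA these differ only at the 3′ end. Capitals mark the bases from position 21 onward. Forms longer than the mature sequence were taken from the sequences annotated only to the hairpin, or from sequences with no annotation that held bases 2 to 18 of a family miRNA. Of the former there were 11 and of the latter 57.
miR-200c-3p, 21 nt: taatactgccgggtaatgatG
miR-200c-3p, 22 nt: taatactgccgggtaatgatGG
miR-200c-3p, 23 nt: taatactgccgggtaatgatGGA
miR-200c-3p, 24 nt: taatactgccgggtaatgatGGAG
miR-200c-3p, added A: taatactgccgggtaatgatGGAA
miR-200c-3p, added T: taatactgccgggtaatgatGGAT
miR-200c-3p, last base T: taatactgccgggtaatgatGGT
miR-141-3p, 21 nt: taacactgtctggtaaagatG
miR-141-3p, 22 nt: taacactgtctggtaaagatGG
miR-141-3p, 23 nt: taacactgtctggtaaagatGGC
miR-141-3p, 24 nt: taacactgtctggtaaagatGGCC
miR-141-3p, added T: taacactgtctggtaaagatGGT
miR-141-3p, 24 nt ending in T: taacactgtctggtaaagatGGCT

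In miR-200c-3p the break lay between 21 and 22 bases. The 21 nt form went from 1547 and 2200 counts to 108 and 178 and fell by 3.91 ± 0.52 (edgeR adjusted p 0.000368), while the 22 and 23 nt forms above did not pass the test. Forms that begin 1 base upstream (hairpin annotation only) gave the same order: the one ending at position 21 (seq3105) had 52 and 84 counts before and 12 and 10 after (-2.86, edgeR adjusted p 0.00422), whereas those ending at 22 (seq3106, 254 and 354 to 390 and 388) and 23 (seq3107, 210 and 310 to 509 and 393) gave 0.12 and 0.54 and were not called. The log2 ratio of the form ending at 21 to that ending at 23, taken within each library and so free of scaling, was -3.53 and -3.33 before and -7.45 and -7.11 after oxidation with the annotated start. With the start 1 base upstream it was -2.01 and -1.88 before and -5.41 and -5.30 after. The mean shift was -3.85 for the first and -3.40 for the second, and the libraries of the 2 conditions did not overlap. These ratios were chosen after their values were seen.

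Of 12 listed forms of miR-200c-3p longer than 23 bases with the annotated start, 9 could be tested, of which 5 were called lower and 0 higher (edgeR). The 5 ran from -3.44 to -1.73 and the 4 not called from -1.73 to -0.53. The 24 nt form that continues the hairpin (seq6189) had 27 and 59 counts before and 5 and 11 after (-2.60, edgeR adjusted p 0.0241). The form with an added A (seq6186) went from 824 and 1080 to 303 and 366 (-1.73 ± 0.39, edgeR adjusted p 0.0144), and that with an added T (seq6190) from 798 and 1018 to 329 and 292 (-1.80 ± 0.37, edgeR adjusted p 0.00878). A 23 nt form whose last base was T (seq6196) had 2002 and 2311 before and 2431 and 3015 after (0.11 ± 0.46, edgeR adjusted p 0.911). The 23 nt forms ending in A and in T thus both lay near 0, and as for the main form the level of 0 is that of TMM scaling. Rarer 23 nt forms with other last bases had more counts after oxidation. The form ending in G (seq6194) had 109 and 105 before and 213 and 306 after. That ending in C (seq6193) had 50 and 68 before and 78 and 148 after. Neither was called higher. The 19 nt form of miR-200c-3p (seq6169) was rare, with 12 and 5 counts before and 4 and 6 after (-1.01, edgeR adjusted p 0.450).

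miR-141-3p showed another order. Its 21 nt form fell by 3.95 and its 22 nt form by 3.07, whereas the 23 nt form (seq6043) had 1544 and 1328 counts before and 496 and 505 after (-1.77 ± 0.55, edgeR adjusted p 0.0581) and the 24 nt form (seq6044) from 462 and 458 to 386 and 248 (-0.82 ± 0.37, edgeR adjusted p 0.195), neither of them called. The log2 ratio of the 23 to the 22 nt form within a library was -1.36 and -1.64 before and -0.38 and -0.03 after oxidation. For the 24 to the 22 nt form it was -3.10 and -3.18 before and -0.74 and -1.06 after. From 21 to 24 bases along the hairpin, each longer form of miR-141-3p had a higher fitted value, while the rarer 25 nt form (seq6045, 17 and 7 counts before and 11 and 3 after) gave -1.10 and the 19 nt form (seq6038, 36 and 53 before and 21 and 14 after) -1.60, neither of them called. Forms of the same lengths with an untemplated T did not follow this: the 23 nt form ending in GGT (seq6048) had 172 and 188 counts before and 37 and 23 after (-2.86, edgeR adjusted p 0.00356) and the 24 nt form ending in GGCT (seq6047) from 261 and 221 to 26 and 23 (-3.56 ± 0.44, edgeR adjusted p 0.000332).

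**Figure D3:**
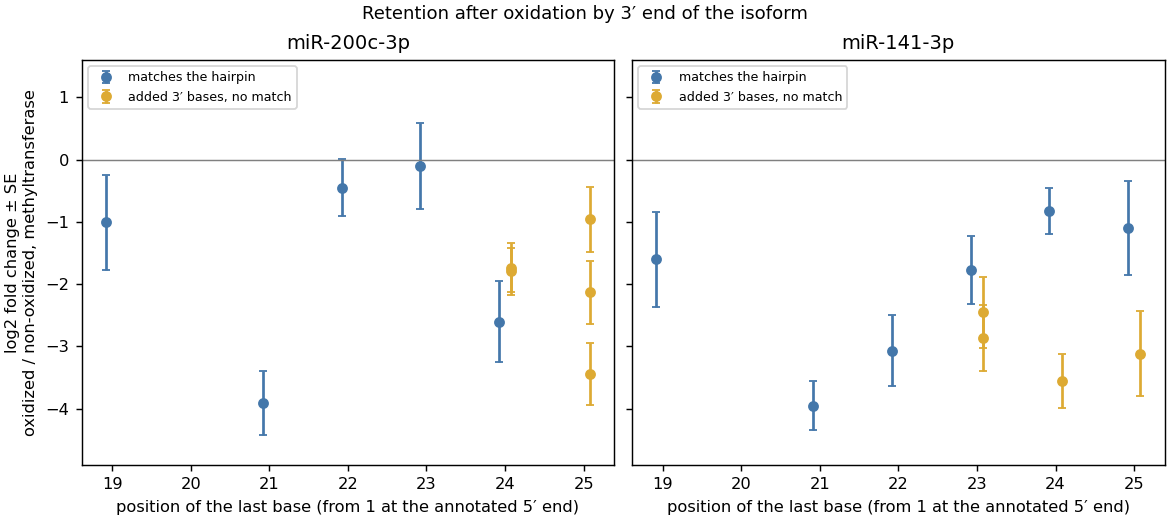
Fitted log2 fold change (± SE) between oxidized and non-oxidized methyltransferase RNA against the position of the last base, for forms of miR-200c-3p (left) and miR-141-3p (right) with the annotated 5′ end. Blue points match the hairpin and yellow points carry untemplated bases after the mature sequence; miR-200c-3p is lowest at position 21 and near 0 at 22 and 23, whereas miR-141-3p rises from -3.95 at 21 to -0.82 at 24. The level of 0 is that of TMM scaling, under which both miR-200c-3p points are slightly negative and with total counts positive.

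Precursor-annotated forms of the chromosome 4 cluster were also reduced. The most abundant sequence of miR-200a-3p was a 23 nt form with 1 base beyond the mature end (seq6054), which had 2772 and 3386 counts in non-oxidized control RNA. It went from 856 and 753 counts to 90 and 110 in methyltransferase RNA and fell by 3.25 ± 0.42 (edgeR adjusted p 0.000497). Its fitted value lay below that of its own 22 nt form, the opposite order to the same forms of miR-141-3p; the difference was not tested. The 23 nt form of miR-200b-3p (seq6234) went from 119 and 108 to 20 and 25 and fell by 2.57 ± 0.51 (edgeR adjusted p 0.00701). Of the 11 sequences annotated only to a family hairpin, 5 were called lower and 0 higher, and of 42 tested without annotation 11 were lower and 0 higher (edgeR), where 11.2% of all sequences and 41.4% of mature ones were lower.

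The shift in forms changed the makeup of each miRNA. Over all 15 listed forms of miR-141-3p, forms longer than the main sequence held 24.9% ± 2.72 (SD, n = 2) of counts in non-oxidized and 50.5% ± 0.371 (SD, n = 2) in oxidized methyltransferase RNA. Its main form held 41.1% ± 0.144 and 32.6% ± 0.171 (SD, n = 2 each), but its share among the 3 members alone was higher by 13.1 percentage points after oxidation, since the longer forms are not among them. In non-oxidized control RNA the longer forms held 33.0% and 28.4%. Over the 59 forms of miR-200c-3p the main form held 54.0% ± 0.225 before and 60.8% ± 0.531 after oxidation (SD, n = 2 each), and shorter forms 29.6% and 29.4% before and 21.6% and 22.3% after. The libraries compared did not overlap in any of these shares. An exact permutation test (two-sided) of 2 libraries against 2 gives 0.333 at the least. Over 36 such comparisons of shares, of which 31 showed no overlap, the adjusted p was at least 0.387. The 36 are not independent, because a class of a miRNA can gain share only where another class loses it. Other miRNAs were not counted in this way, so the 31 are no result about the family.

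**Figure D4:**
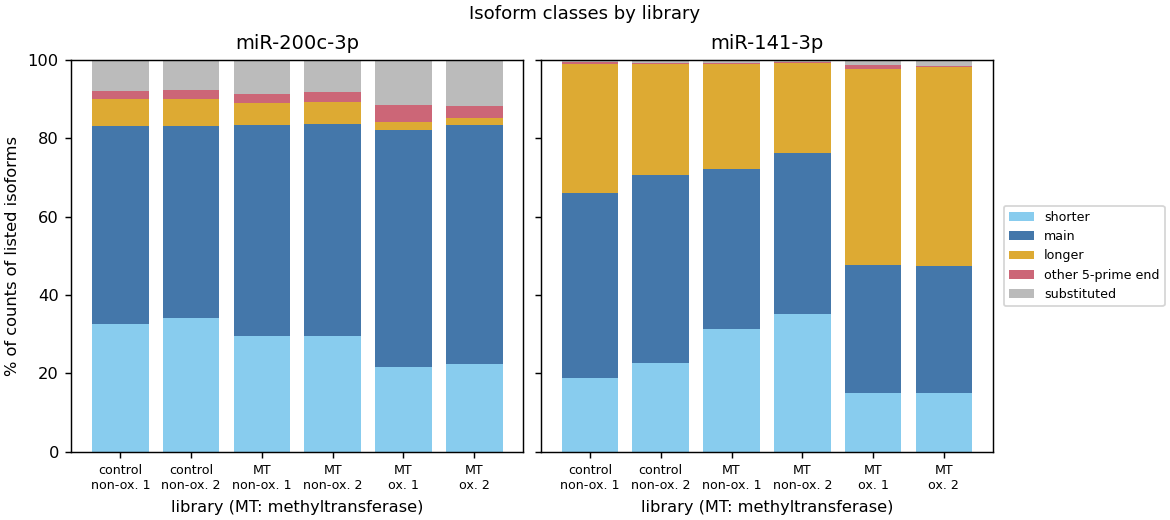
Share of each class of form in the counts of miR-200c-3p (59 listed forms) and miR-141-3p (15 listed forms), in percent, with 1 bar per library; classes are set by the ends relative to the main sequence, and "substituted" forms differ from it by bases within its length. After oxidation the longer class grows to 50.2% and 50.8% in miR-141-3p and shrinks to 2.20% and 1.81% in miR-200c-3p.

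Ratios between family miRNAs within a library do not depend on scaling, and they also set miR-200c-3p apart from miR-141-3p, miR-200a-3p and miR-200b-3p. The log2 ratio of miR-200c-3p to miR-141-3p, the 2 products of the chromosome 6 cluster, was 0.91 and 0.71 in non-oxidized control RNA, 2.17 and 2.41 in non-oxidized methyltransferase RNA and 4.87 and 5.57 after oxidation of the latter. Its mean was thus higher by 1.48 with the methyltransferase and by a further 2.93 after oxidation, and no libraries of neighbouring groups overlapped. With all member sequences summed, these shifts were 1.04 and 3.06, again without overlap. The ratio of miR-200c-3p to miR-200a-3p went from 5.07 and 5.16 to 6.62 and 7.48 and then 9.30 and 9.73. Its mean shift between plasmids was 1.93, or 1.28 with members summed. The ratio of miR-200c-3p to miR-200b-3p, which share a seed, went from 7.09 and 6.34 to 7.91 and 7.97 and then 9.20 and 9.06. The ratio of miR-200a-3p to miR-141-3p, which share the other seed but not a cluster, lay between -5.07 and -4.16 in these 6 libraries. It differed by -0.46 between plasmids and by 0.47 with oxidation, and when all member sequences were summed its groups overlapped in both comparisons. The ratio of miR-429-3p to miR-200b-3p lay between 2.58 and 3.52.

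Tests of these ratios are limited by the 2 libraries per group. Over 12 comparisons of 6 ratios the p of the exact two-sided permutation test was 0.333, the smallest it can give, wherever the groups did not overlap (adjusted p 0.364). The ratio of miR-200b-3p to miR-200a-3p between plasmids, with -2.03 and -1.17 against -1.29 and -0.49, overlapped (exact permutation p 0.667). In shares, miR-200c-3p held 65.0% (95% Wilson interval 64.7% to 65.4%) and 61.6% (61.3% to 61.9%) of member counts in non-oxidized control RNA. It held 76.1% (75.7% to 76.6%) and 78.1% (77.7% to 78.5%) in non-oxidized methyltransferase RNA and 94.4% (94.1% to 94.7%) and 96.4% (96.2% to 96.6%) after oxidation. For miR-141-3p the shares were 29.4% (29.0% to 29.7%) and 32.5% (32.2% to 32.8%), then 19.1% (18.7% to 19.5%) and 17.5% (17.2% to 17.9%), then 3.44% (3.23% to 3.66%) and 2.16% (2.01% to 2.32%).

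**Figure D5:**
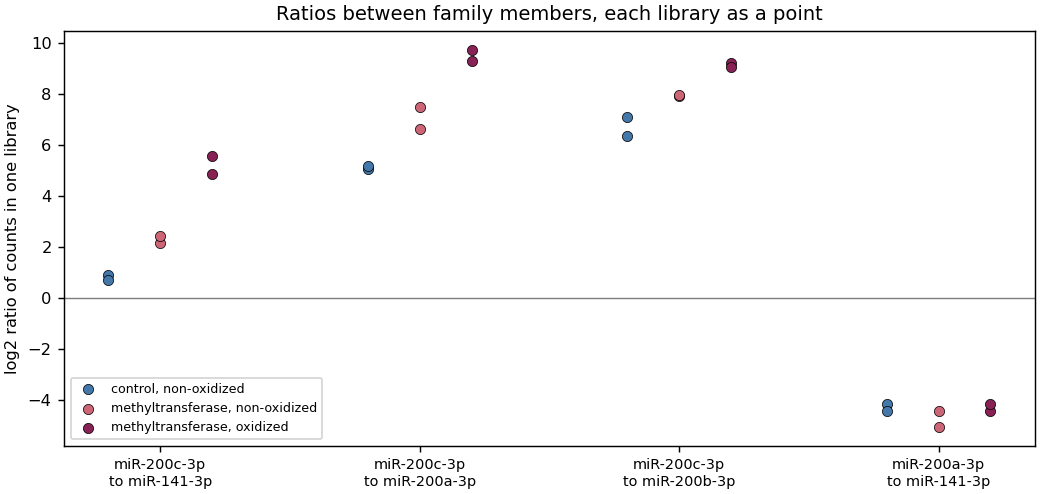
Log2 ratio of the counts of the main sequences of 2 family miRNAs within each library, for the 3 groups with enough reads; each point is a library and colours are groups. The ratios of miR-200c-3p to miR-141-3p, miR-200a-3p and miR-200b-3p step up from non-oxidized control to non-oxidized and then oxidized methyltransferase RNA, and that of miR-200a-3p to miR-141-3p lies between -5.07 and -4.16 throughout.

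The 2 arms of a hairpin also differed in proportion between plasmids before oxidation. The log2 ratio of the 3p to the 5p main sequence of miR-200a was 2.84 and 2.10 with the control plasmid and 1.09 and 0.04 with the methyltransferase. For miR-200b it was 2.19 and 2.33 against 1.17 and 0.94, and for miR-141 5.17 and 5.36 against 4.16 and 3.90. The ratio was lower with the methyltransferase in all 3 hairpins, by -1.91, -1.21 and -1.24, with no overlap of libraries. With all member sequences summed these shifts were -1.24, -1.21 and -0.95, again without overlap. After oxidation the ratio of main sequences was -1.05 and -0.43 for miR-200a and 3.38 and 3.52 for miR-141. For miR-200b it was 0.54 and 1.72 and overlapped the non-oxidized values. The main 5p sequence of miR-200a thus outnumbered the main 3p sequence in both libraries, but the arm as a whole did not. Over all listed forms miR-200a-3p had 138 and 154 counts there, against 79 and 51 for miR-200a-5p. These arm ratios were chosen after their values were seen and were not tested.

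Whether oxidation acted differently with the 2 plasmids was tested directly for 24 members. In the interaction term of the edgeR model, 24 were called higher with the methyltransferase and 0 lower, beside 39.6% and 3% of all sequences and 85.7% and 0% of mature miRNA sequences. The median was 8.25 on the log2 scale, or 4.28 with 17 members at their bound, against 7.19 over mature miRNA sequences. For miR-200c-3p it was 12.16 ± 1.26 (SE, edgeR adjusted p 1.82e-05) and for miR-141-3p 9.88 ± 0.96 (edgeR adjusted p 1.22e-05). The lowest value was that of the 21 nt form of miR-200a-3p at 1.84 ± 0.68 (edgeR adjusted p 0.0458), and the 21 nt form of miR-141-3p had 3.14 ± 0.51 (edgeR adjusted p 0.000426). Both changed sign, to -1.72 and -0.43 with total counts and to -2.82 and -1.54 with mature sequences alone. With total counts, which shift the median of all sequences by -3.50, 15 members were called higher and 0 lower, against 20.2% of all sequences called higher. With mature sequences alone 11 were higher and 2 lower, the latter being these 21 nt forms, against 34.8% and 13.1% of 609 sequences.

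In the authors' deposited table, 23 of the 26 members were higher in oxidized methyltransferase than in oxidized control RNA at an adjusted p under 0.05 and 0 were lower, against 46.2% and 0.994% of all listed sequences. In the authors' deposited table, 9 members of the 26 were also lower in oxidized than in non-oxidized methyltransferase RNA and 0 were higher, against 9.77% and 1.31% of all listed sequences.

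Across the 8 libraries the miRNAs most like miR-200c-3p were not its relatives. By Pearson's r of log2 TMM-scaled CPM plus 1 over the main sequences of 123 mature miRNAs, the closest were miR-129-5p (0.996), miR-125a-3p (0.994), miR-30e-3p (0.993), miR-7b-5p (0.991) and let-7c-5p (0.991). Of the family, miR-429-3p ranked 40th (0.959), miR-141-3p 60th (0.935), miR-200b-3p 70th (0.918) and miR-200a-3p 100th (0.852). These values describe 8 libraries, whose depth all miRNAs share, and 92.8% of mature miRNA sequences were lower in oxidized control RNA. miR-129-5p, the closest, had 14785 and 19138 counts before and 22087 and 11123 after oxidation with the methyltransferase. The 7 islet miRNAs checked gave -0.47 (miR-153-3p), -1.08 (miR-7b-5p), -1.39 (miR-375-3p), -1.74 (miR-7a-5p), -2.51 (miR-183-5p), -2.88 (miR-96-5p) and -5.88 (miR-182-5p) in that comparison. The fitted value of miR-200c-3p, -0.10 ± 0.69, lay above these 7 but within its SE of the highest, and that of miR-141-3p lay within their range; these differences were not tested.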

How the data were processed

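The authors deposited 1 table of raw counts per distinct read sequence for 8 libraries, with annotation hits, per the file headers. The aligner, genome build, trimming and use of molecular identifiers are not given in the sources used here. The same deposited table holds the authors' signed fold change, treated as a score, and their adjusted p-value for 2 comparisons, which were only quoted, and a number of genomic matches by the authors (another value, not used in any test). A further 16 columns of per-sample values were not used. Lines of the same sequence were merged, so that 12608 lines gave 11568 sequences. Counts of all sequences were filtered with filterByExpr, scaled by TMM and fitted in 1 model of 4 groups with the quasi-likelihood test of edgeR (4.0.16, limma 3.58.1, R 4.3.3). P-values were adjusted by Benjamini-Hochberg over the 9851 sequences tested, with calls at an adjusted p under 0.05. Of the 26 members, 24 passed the filter. The 2 others were a 17 nt form and a form starting with an unread base. A sequence with high counts in 1 group alone passes this filter through that group.

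Sequences with 0 counts in both libraries of a group are given as bounds against 3 counts per library under TMM scaling. The SE is the log2 fold change divided by the square root of the F statistic. Alternatives were DESeq2 (1.42.0) size factors and Wald test, total counts, upper quartile, other filters, only the libraries compared, mature sequences alone, sums by miRNA name, a replicate block and leaving out each library. A simulation of oxidation in methyltransferase RNA gave 200 of 9851 sequences an 8-fold change. Of these, 155 could be tested and 95 of the 155 (61.3%) were recovered, while 2 unchanged sequences were called. A sequence that was not called may therefore still have changed. Forms were assigned to a miRNA by bases 2 to 18. Named sequences were the main sequence of each listed arm, the 3 other members with the highest mean count, members called against the direction of most calls, and 7 comparison miRNAs; other forms were named after their values were seen. The members and lists were chosen with earlier results of these data known. Replicate numbers were checked for pairing: deviations from group means correlated between -0.01 and 0.56 across groups, and with 2 numbers the libraries were not treated as paired.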

Additional observations from a re-analysis of the deposited data

Results flagged for a closer look

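Each of the 11 sequences of the family named by rule drew attention because oxidation acted on it differently under the 2 plasmids, by the interaction term of the edgeR quasi-likelihood model. Such a call is usual here: 85.7% of mature miRNA sequences and 39.6% of all sequences were called higher in this term. For those with reads in oxidized control RNA the log2 differences were 12.16 (miR-200c-3p, 23 nt), 8.86 (miR-200c-3p, 22 nt), 4.89 (miR-200c-3p, 21 nt), 9.88 (miR-141-3p, 22 nt) and 3.14 (miR-141-3p, 21 nt). For those without, the ratio of the oxidation effects was at least 245-fold for miR-429-3p, 57.6-fold for miR-200a-3p, 51.1-fold for miR-200b-3p, 32.7-fold for miR-141-5p, 27.0-fold for miR-200a-5p and 9.59-fold for miR-200b-5p. These bounds hold under TMM scaling only and would be smaller with total counts. Among the 3 sequences of miR-200c-3p and the 2 of miR-141-3p given here, the difference was smallest for the 21 nt forms.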

How the results depend on the processing

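Counts of members called stayed within 1.5 times except as follows. With at least 10 counts in every library 2 members could be tested, and 2 were called in methyltransferase against control after oxidation, 2 for oxidation in control RNA, 1 for oxidation in methyltransferase RNA and 2 in the interaction. With sums by miRNA name, where 8 names replace 24 sequences, the counts were 8, 8, 5 and 8. With mature sequences alone they were 14 (12 higher, 2 lower, against 37.8% and 14% of 609 sequences), 11 (lower, against 48.1%) and, in the interaction, 13 (11 higher, 2 lower, against 34.8% and 13.1%). For oxidation in methyltransferase RNA that setting kept the total within 1.5 times but changed directions. It gave 5 higher and 6 lower (19.9% and 23.3% of 609 sequences), against 0 and 9 in the main fit. With only the libraries compared 14 were called between plasmids after oxidation, with total counts 15 in the interaction, and with the DESeq2 Wald test 3 between plasmids before oxidation. Leaving out single libraries gave 21 to 23 calls between plasmids after oxidation, 0 to 0 before it, 23 to 24 for oxidation in control RNA, 7 to 9 in methyltransferase RNA and 22 to 23 in the interaction. With the replicate block 23, 0, 23, 9 and 23 were called in that order, and it changed no count by over 1.5 times.

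Values that changed sign were, with mature sequences alone, the 21 nt forms of miR-141-3p (-2.03) and miR-200c-3p (-0.26) between plasmids after oxidation, miR-200a-5p (0.055), miR-200b-5p (0.061) and miR-200c-3p (0.092) between plasmids before it, miR-200a-5p (0.17), miR-200b-3p (0.20), miR-200b-5p (0.061), miR-200c-3p (1.38) and its 22 nt form (1.03) for oxidation in methyltransferase RNA, and the 21 nt form of miR-141-3p in the interaction (-1.54). With total counts that form was -1.07 between plasmids after oxidation and -0.43 in the interaction, miR-200c-3p was 0.78 and its 22 nt form 0.43 for oxidation in methyltransferase RNA. With the upper quartile the latter were 0.67 and 0.32. miR-200c-3p was also 0.14 with only the libraries compared and, over the libraries left out in turn, -0.32 to 0.19, the highest without the first oxidized methyltransferase library. The share of the main form of miR-141-3p changed by 13.1 points among members alone. The cause of these changes was not tested. Depth limits oxidized control RNA most, where 3 counts are 0.000684% and 0.00102% of listed counts.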

Other observations

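Of the 26 members, 4 began with C or G in place of the annotated first T of miR-200c-3p and had no genomic match in the deposited table. Those ending at position 23 gave 0.88 and 0.87 on the log2 scale for oxidation in methyltransferase RNA and those ending at 22 gave -0.02 and 0.63, none of them called by the edgeR quasi-likelihood test.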
